A study of Mus musculus with 4 samples.

Results

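Receptors for the alarmin cytokines were described in Th2 cells, the CD4 T helper cells that make IL-4, IL-5 and IL-13, cultured with or without SH-2251, a small compound first made as an inhibitor of IL-5 production. The receptor genes were a set list found on the arrays by name. The rule uses no measured value, but the list was chosen with earlier results of these data known. The genes were Il1rl1 and Il1rap (IL-33 receptor), Il18r1 and Il18rap (IL-18 receptor), Il1r1 and Il1r2 (IL-1 receptors), Il17rb and Il17ra (IL-25 receptor) and Crlf2 (TSLP receptor). These are 9 of the 18539 genes that could be named on the arrays, and 16 of the 27198 named probes. All 4 conditions used splenic CD4 T cells of female C57BL/6J mice, whose age the labels do not give. Activation by plate-bound antibody to TCR-β (3 µg/ml) together with anti-CD28 (1 µg/ml) took 2 days, with 2.5 ng/ml of IL-2 and 10 ng/ml of IL-4, after which the cells stayed in both cytokines for 3 further days. Treated cells received SH-2251 in both culture periods, at doses that the labels give as 1 µM and then 1 mM. The study's methods give a far lower usual dose and naïve starting cells. Control and treated cells were taken either resting or after 4 h on immobilized anti-TCR-β (restimulated). Each condition was measured on 1 single-dye array, so that no difference between conditions has a replicate check and none was tested.

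Alarmins are cytokines that epithelial and other tissue cells release when they are damaged or stimulated, and Th2 cells are among the cells that respond to them. IL-33 binds ST2, the product of Il1rl1, which then pairs with the shared IL-1 receptor accessory protein made by Il1rap. IL-18 binds the product of Il18r1, with Il18rap as its accessory chain, and IL-1 binds the signalling receptor Il1r1 or the decoy receptor Il1r2, which lacks a signalling domain. These signalling receptors recruit MyD88 and the IRAK kinases. IL-25 acts through Il17rb together with Il17ra and the adaptor Act1, and TSLP through Crlf2 together with Il7r and the STAT5 pathway. Th2 cells are known for high ST2, which marks them against other helper cells.

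Of the 9 receptors, Il1rl1 was at least 2-fold lower and Il1r1 at least 2-fold higher with SH-2251, both in resting and in restimulated cells. The other 6 receptors that could be measured differed by less than 2-fold between treated and control cells in both states. Il17rb could not be told from background anywhere. Restimulation was accompanied by higher Il1rap and Il1r2 in control and in treated cells.

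The promoters of the 2 receptors past 2-fold with SH-2251 are shown, with that of the next gene along, Il18r1, because Il1rl1, Il1r1 and Il18r1 lie near each other on chromosome 1 and differed from each other in their values. The sequences are those of RefSeq for GRCm38.p6, each on the + strand and read 5′ to 3′, from 250 bases before an annotated start to 50 after it. Il1rl1 has 2 annotated starts, at chr1:40429320-40429619 (start 1) and chr1:40439379-40439678 (start 2). Il1r1 also has 2, at chr1:40224830-40225129 (start 1) and chr1:40266336-40266635 (start 2). For Il18r1 the first of 3 starts is shown, at chr1:40465302-40465601. Capitals mark AGATAA, a form of the core that GATA factors bind, and AAATCA, a form of the core bound by the repressor Gfi1. Both were searched on both strands (TTATCT and TGATTT on the other strand). Other forms of these cores were not searched and are not marked.
Il1rl1 start 1: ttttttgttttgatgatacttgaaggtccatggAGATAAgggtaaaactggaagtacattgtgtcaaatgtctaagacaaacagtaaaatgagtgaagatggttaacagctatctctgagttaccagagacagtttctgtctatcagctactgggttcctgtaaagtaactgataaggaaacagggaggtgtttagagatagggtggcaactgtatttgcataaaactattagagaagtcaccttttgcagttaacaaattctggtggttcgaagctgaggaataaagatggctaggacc
Il1rl1 start 2: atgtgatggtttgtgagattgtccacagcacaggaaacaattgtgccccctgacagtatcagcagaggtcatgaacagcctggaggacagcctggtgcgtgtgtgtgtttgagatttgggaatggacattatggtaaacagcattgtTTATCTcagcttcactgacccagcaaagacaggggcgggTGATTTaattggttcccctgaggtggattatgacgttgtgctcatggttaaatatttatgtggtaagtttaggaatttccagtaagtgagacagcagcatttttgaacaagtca
Il1r1 start 1: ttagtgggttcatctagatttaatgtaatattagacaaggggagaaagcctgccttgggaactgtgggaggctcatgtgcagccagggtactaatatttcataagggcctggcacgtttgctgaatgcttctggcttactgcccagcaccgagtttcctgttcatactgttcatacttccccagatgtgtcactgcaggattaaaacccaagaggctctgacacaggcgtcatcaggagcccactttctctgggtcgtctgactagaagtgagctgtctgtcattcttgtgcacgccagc
Il1r1 start 2: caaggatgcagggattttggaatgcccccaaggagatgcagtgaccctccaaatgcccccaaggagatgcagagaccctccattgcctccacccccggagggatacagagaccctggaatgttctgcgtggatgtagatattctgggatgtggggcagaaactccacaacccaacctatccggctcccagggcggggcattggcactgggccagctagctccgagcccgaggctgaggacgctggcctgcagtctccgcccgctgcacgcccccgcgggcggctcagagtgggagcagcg
Il18r1 start 1: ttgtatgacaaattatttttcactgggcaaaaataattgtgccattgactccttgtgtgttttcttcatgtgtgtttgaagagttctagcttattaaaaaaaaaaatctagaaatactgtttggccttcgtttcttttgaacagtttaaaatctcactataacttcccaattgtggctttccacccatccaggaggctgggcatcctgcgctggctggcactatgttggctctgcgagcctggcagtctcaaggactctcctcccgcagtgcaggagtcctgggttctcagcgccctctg
The window of Il1rl1 start 1 held AGATAA once, at position -217 counted from the start. That of Il1rl1 start 2 held AGATAA once, at -103, and AAATCA once, at -64, both on the - strand. Neither of these exact runs was found in the Il1r1 windows or in the Il18r1 window shown. The runs are common, since 11.2% of the 32851 promoter windows of the same length held AGATAA and 14.0% held AAATCA. The AP-1 site TGACTCA, held by 5.20% of windows, was found in 1 receptor promoter, that of Il17rb, at -104. Promoter windows were present for 8 of the 9 receptors, the exception being Il17ra. A match is a run of letters and was not measured as a bound site here.

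Levels are given on the log2 scale as the brightness of a probe relative to the 75th percentile of its array, so that 0 is the brightness of that percentile. The percentile stood at 561, 614, 499 and 583 intensity units on the resting control, resting SH-2251, restimulated control and restimulated SH-2251 arrays, and values below are given in this order of arrays. The scanner software called 56.0% to 56.7% of probes well above background, no probe was saturated, and all 4 arrays were on 1 slide and read in 1 scan. The error given beside a difference is a technical SD from the scanner software, which covers error within the arrays only. Probes differ in how brightly they bind, so levels are compared between arrays and not between genes. Because whole cultures were measured, fewer cells that express a gene and less RNA per cell cannot be told apart.

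**Figure D1:**
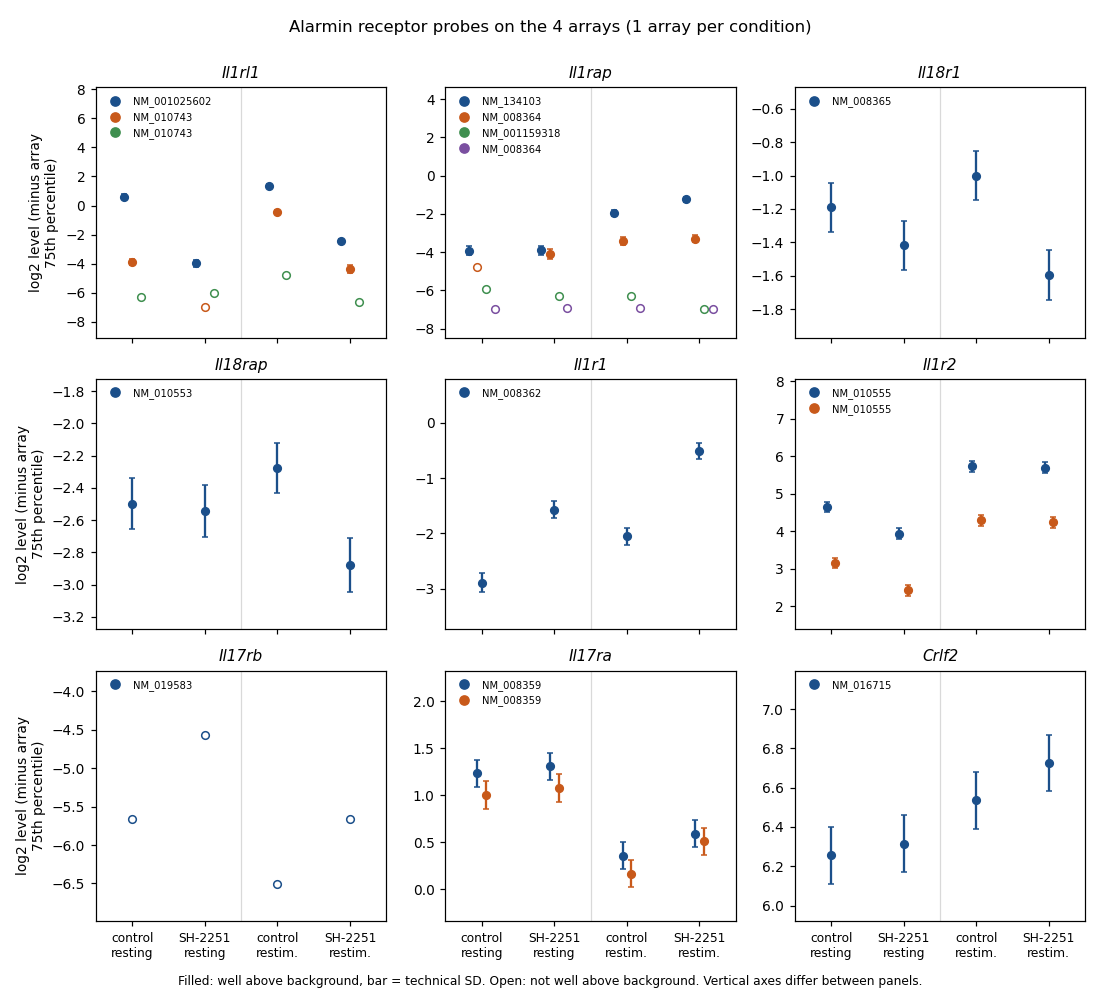
Log2 levels of all 16 probes of the 9 receptor genes on the 4 arrays, 1 array per condition, with panels for genes and colours for probes. Filled points are well above background and carry the technical SD, and open points are not. Il1rl1 is low on both SH-2251 arrays, Il1r1 is highest on the restimulated SH-2251 array, and Il17rb has open points only.

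The IL-33 receptor chain Il1rl1 had the largest differences with SH-2251 among the receptors. Its brightest probe, designed on NM_001025602, read 862 intensity units in resting control cells, 38.8 in resting treated cells, 1252 in restimulated control cells and 106.6 in restimulated treated cells. On the log2 scale these are levels of 0.62, -3.99, 1.33 and -2.45. Both treated arrays were thus below both control arrays, whichever state is taken. With SH-2251 the level was 24.4-fold lower in resting cells, a log2 difference of -4.61 (technical SD 0.305), which left 4.11% of the control signal. In restimulated cells it was 13.7-fold lower, a log2 difference of -3.78 (technical SD 0.216), which left 7.30%. Il1rl1 held rank 5 among all decreases in either state, of 11874 genes measured on both resting arrays and 11812 measured on both restimulated arrays. With another background correction (normexp) the resting difference was -1.99 and the restimulated one -2.96. Under normexp without spots of uneven local background they were -3.05 and -2.96. Averaging all 3 probes, with a probe that stayed at background included, gave -2.48 and -3.20.

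Il1rl1 gives rise to a membrane receptor, ST2L, and to a shorter soluble form that binds IL-33 without signalling. NM_001025602 is the record of the membrane form and NM_010743 that of the soluble form, but the positions of the probes are not known here, so which transcripts each one binds is not given by its label. The brighter NM_010743 probe read 37.4, 4.90, 369 and 28.1 intensity units, levels of -3.90, -6.97, -0.44 and -4.38. It was not well above background in resting treated cells, where the decrease is at least 1.68-fold. In restimulated cells it was 15.3-fold lower with SH-2251, a log2 difference of -3.94 (technical SD 0.309), close to the value of the NM_001025602 probe. A further NM_010743 probe stayed at background on all 4 arrays.

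The Il1rl1 probes differed in what restimulation did. In control cells the NM_001025602 probe was 1.63-fold higher after restimulation, a log2 difference of 0.71 (technical SD 0.204), whereas the brighter NM_010743 probe was 11.1-fold higher, a log2 difference of 3.47 (technical SD 0.263). The gap between the probes was 2.76 on the log2 scale, and averaging all 3 probes gave 1.89 in control cells, which is past 2-fold. In treated cells the NM_001025602 probe was 2.90-fold higher after restimulation, a log2 difference of 1.54 (technical SD 0.313), and the other at least 1.21-fold higher. The value of 1.54 rests on a dim resting signal and turned to -0.30 with the normexp correction. Under normexp without spots of uneven local background it was 0.76. Restimulated treated cells therefore stayed below resting control cells on the NM_001025602 probe, at -2.45 against 0.62.

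Il1rap, the accessory chain shared by the IL-33 and IL-1 receptors, was higher in restimulated than in resting cells. Its brightest probe (NM_134103) read 37.0, 40.8, 129 and 246 intensity units, levels of -3.92, -3.91, -1.95 and -1.25. The resting arrays read nearly the same and both restimulated arrays were higher. The log2 difference with SH-2251 was 0.01 (technical SD 0.313) in resting and 0.70 (technical SD 0.210) in restimulated cells. Restimulated levels were 3.92-fold higher in control cells and 6.36-fold higher in treated cells, log2 differences of 1.97 (technical SD 0.266) and 2.67 (technical SD 0.267). A second probe, designed on NM_008364, gave smaller values, at least 2.53-fold in control cells and a log2 difference of 0.81 (technical SD 0.320) in treated cells. The other 2 Il1rap probes stayed at background on all 4 arrays. The positions of the Il1rap probes are not known here either, so which transcripts each one binds is not given by its label. Averaging all 4 probes, the 2 at background included, brought the log2 differences with restimulation to 0.75 in control and 0.69 in treated cells. Both are under 2-fold, and the restimulated difference with SH-2251 was then 0.02. Probes at background pull such a mean toward no difference. Under normexp the restimulation differences were 1.08 in control and 0.63 in treated cells. The resting difference with SH-2251 was then 0.84, larger than the restimulation difference in treated cells. Under normexp without spots of uneven local background the restimulation differences were 1.08 and 1.56, and the resting difference with SH-2251 was -0.10.

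The IL-18 receptor chains, which lie next to Il1rl1, differed by less than 2-fold with SH-2251, and both were lower in restimulated treated cells. Il18r1, the ligand-binding chain, read 246, 230, 249 and 192 intensity units, levels of -1.19, -1.42, -1.002 and -1.60. Il18rap, its accessory chain, read 99.2, 105, 103 and 79.3 units, levels of -2.50, -2.55, -2.28 and -2.88. For both chains the restimulated treated array was the lowest. In resting cells the log2 differences with SH-2251 were -0.23 (technical SD 0.209) for Il18r1 and -0.05 (technical SD 0.226) for Il18rap. In restimulated cells they were -0.60 (technical SD 0.209), or 1.51-fold lower, for Il18r1 and -0.60 (technical SD 0.229), or 1.52-fold lower, for Il18rap. These last values are between 2 and 3 times their technical SD, and with no replicate array they cannot be set against the spread between cultures. With the normexp correction both resting differences changed sign, to 0.16 for Il18r1 and 0.54 for Il18rap. They kept their sign under normexp without spots of uneven local background, at -0.20 and -0.08.

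The signalling IL-1 receptor Il1r1 was higher with SH-2251. Its probe read 75.6, 207, 120 and 409 intensity units, levels of -2.89, -1.57, -2.05 and -0.51. Each treated array was above the control array of the same state, and resting treated cells were above restimulated control cells. The level was 2.50-fold higher in resting cells, a log2 difference of 1.32 (technical SD 0.224), and 2.92-fold higher in restimulated cells, a log2 difference of 1.54 (technical SD 0.210). These were rank 108 and rank 84 among all increases. Under normexp without spots of uneven local background the resting difference was 0.86, which is less than 2-fold. With restimulation Il1r1 was 1.79-fold higher in control and 2.08-fold higher in treated cells, a log2 difference of 1.06 that was 0.50 under normexp and 0.81 without uneven spots.

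The decoy IL-1 receptor Il1r2 was bright on every array and has 2 probes, which gave nearly the same differences. The brighter read 14093, 9437, 26551 and 30310 intensity units, levels of 4.65, 3.94, 5.73 and 5.70, and the other had levels of 3.16, 2.43, 4.29 and 4.24. In resting cells the probes were 1.64-fold and 1.65-fold lower with SH-2251, log2 differences of -0.71 and -0.73 (technical SD 0.204 each). In restimulated cells the differences were -0.03 and -0.05, within the technical SD. With restimulation the brighter probe was 2.12-fold higher in control cells and 3.39-fold higher in treated cells, log2 differences of 1.08 and 1.76. Treated cells were therefore below control cells at rest and level with them after restimulation. Quantile normalization brought the restimulation difference in control cells to just under 2-fold.

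Of the receptors for IL-25 and TSLP, Il17ra and Crlf2 could be measured and differed by less than 2-fold with SH-2251. Il17rb, the chain that binds IL-25, had levels of -5.66, -4.56, -6.50 and -5.66, none well above background, so no fold is given and any difference could not be measured. Il17ra, which IL-25 shares with IL-17A, had levels of 1.23, 1.31, 0.36 and 0.59 on its brighter probe and 1.00, 1.08, 0.17 and 0.51 on the other. It was lower in both restimulated states, by 1.83-fold and 1.78-fold on the 2 probes in control cells. The 2 probes differed with SH-2251 by 0.08 and 0.07 at rest and by 0.23 and 0.34 after restimulation. Crlf2, the TSLP-binding chain, read 42864, 48912, 46352 and 61650 intensity units, levels of 6.26, 6.31, 6.54 and 6.73. Its differences with SH-2251 were 0.06 and 0.19 and those with restimulation 0.28 in control and 0.41 in treated cells, each with a technical SD of 0.204. Its 4 levels spanned 0.47 log2 units, from the resting control to the restimulated SH-2251 array. Il7r, the partner chain of Crlf2, had levels of 4.29, 4.34, 4.57 and 4.55.

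**Figure D2:**
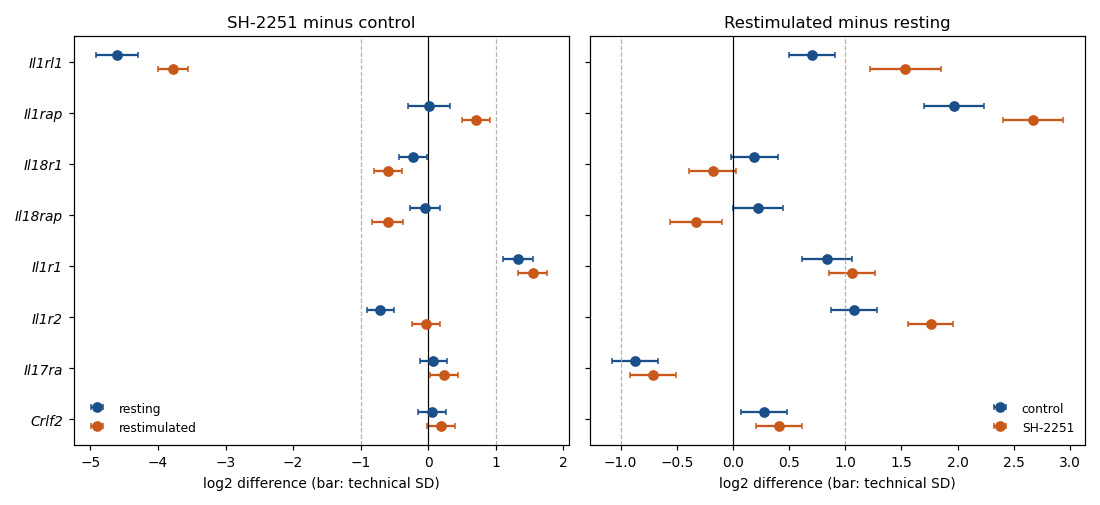
Log2 differences of the receptor genes, by their brightest probe, for SH-2251 against control in resting and restimulated cells and for restimulated against resting cells in control and treated cells. Bars are the technical SD, which covers error within arrays only, and lines mark 2-fold. Il1rl1 lies beyond 2-fold below and Il1r1 beyond 2-fold above in both comparisons with SH-2251.

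Counts of receptors past 2-fold are small and are given beside the share of all genes. With SH-2251, 1 of 8 measured receptors was at least 2-fold lower in resting cells and 1 was at least 2-fold higher, against 2.90% and 2.26% of the 12684 genes compared (5.16% in either direction). In restimulated cells the counts were again 1 and 1, the same genes, against 2.78% and 2.65% of 12623 genes (5.43% in either direction). The median difference of the receptors was -0.02 in resting and 0.08 in restimulated cells, against -0.06 for all genes in either state. With restimulation, no receptor was at least 2-fold lower and 2 were at least 2-fold higher in control cells (Il1rap and Il1r2), against 7.34% and 7.24% of 12758 genes (14.6% in either direction). In treated cells none was lower and 4 were higher (Il1rl1, Il1rap, Il1r1 and Il1r2), against 6.98% and 7.09% of 12613 genes (14.1% in either direction). Of these 4, only Il1r2 stayed past 2-fold under normexp, where Il1rl1 was at -0.30, Il1rap at 0.63 and Il1r1 at 0.50, and Il1rap and Il1r2 did so under normexp without uneven spots. Median differences with restimulation were 0.49 in control and 0.73 in treated cells for the receptors, and -0.06 and -0.05 for all genes. The 2 comparisons with SH-2251 share no array with each other, but each shares its arrays with the restimulation comparisons, so the 4 sets of values are not independent.

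The response to restimulation could also be set side by side between treated and control cells. It was larger in treated cells by 0.83 (technical SD 0.374) for Il1rl1, 0.70 (technical SD 0.377) for Il1rap and 0.68 (technical SD 0.289) for Il1r2 on the log2 scale. For Il1r1, Il17ra and Crlf2 it differed by 0.22, 0.16 and 0.13, within the technical SD. The direction was not stable across settings for Il1rl1 and Il1rap. For Il1rl1 the response was 0.67 in control and -0.30 in treated cells under normexp, and 1.89 and 1.17 over the mean of all probes, which is smaller in treated cells. For Il1rap it was 1.08 and 0.63 under normexp and 0.75 and 0.69 over the mean of all probes. Under normexp without uneven spots the response stayed larger in treated cells, at 0.67 and 0.76 for Il1rl1 and 1.08 and 1.56 for Il1rap. For Il18r1 and Il18rap it was smaller in treated cells, by values of -0.37 (technical SD 0.296) and -0.55 (technical SD 0.322). None of these differences reached 3 technical SDs.

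Of the 9 receptor genes, 5 lie in one cluster on chromosome 1, in the RefSeq order Il1r2, Il1r1, Il1rl1, Il18r1 and Il18rap, with Il1rl2 (the IL-36 receptor) between Il1r1 and Il1rl1. Values did not follow this order. Along it, SH-2251 went with log2 differences of -0.71, 1.32, -4.61, -0.23 and -0.05 at rest, and of -0.03, 1.54, -3.78, -0.60 and -0.60 after restimulation. The increase of Il1r1 and the decrease of Il1rl1 were thus in genes with only Il1rl2 and a pseudogene between them. Il1rl2 was well above background on the resting treated array alone, at -4.36. Outside the cluster, Map4k4 differed by 0.11 and 0.12 and Slc9a4 stayed at background throughout. The other receptors lie on chromosomes 16 (Il1rap), 14 (Il17rb), 6 (Il17ra) and 5 (Crlf2).

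**Figure D3:**
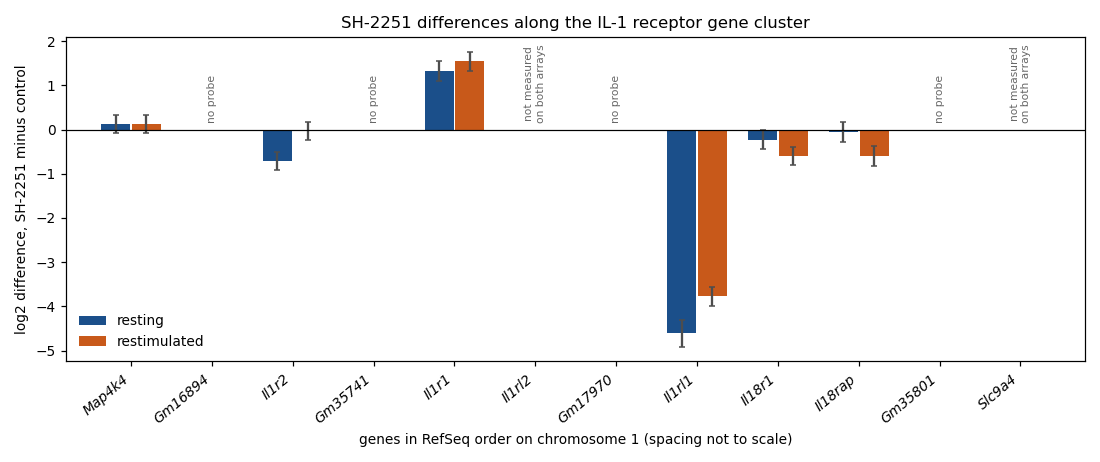
Log2 differences of SH-2251 against control for the genes of the IL-1 receptor cluster and 2 neighbours on each side, in RefSeq order on chromosome 1 with spacing not to scale. Blue bars are resting cells, orange bars restimulated cells, and lines the technical SD. Il1r1 (1.32 and 1.54) and Il1rl1 (-4.61 and -3.78) lie on opposite sides of 0.

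Ligands, partner receptors and signalling proteins of the same pathways were counted from 5 lists of 40 genes. With SH-2251, none of the 30 measured genes was 2-fold different in resting cells, with a median difference of -0.04, against 5.16% of all genes past 2-fold. In restimulated cells 1 of 32 was lower and 1 higher, near the 2.78% and 2.65% of all genes. The lower one was Il18, the ligand of the IL-18 receptor, with levels of -2.64, -3.50, -2.75 and -3.84 and differences of -0.86 (technical SD 0.262) in resting and -1.08 (technical SD 0.287) in restimulated cells. The higher one was Il1a, a ligand of Il1r1, which was not well above background in resting cells and was 2.76-fold higher with SH-2251 after restimulation, a log2 difference of 1.46 (technical SD 0.209). The shared adaptor Myd88 differed by -0.23 and -0.01. All 12 genes of the MyD88 and IRAK arm were measured in every comparison, with median differences of 0.07 and 0.04 with SH-2251.

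More genes of these lists differed with restimulation, as was the case for all genes (14.6% against 5.16% past 2-fold). In control cells 10 of 33 measured genes were at least 2-fold higher and 1 was lower, against 7.24% and 7.34% of all genes. The same 10 were higher in treated cells, with none lower, against 7.09% and 6.98%. Among the ligands these were Il33, Il1a, Il17a and Il17f, none of them well above background at rest, so that only bounds are given. Il33 was at least 2.49-fold higher in control and at least 4.21-fold higher in treated cells, and Il1a at least 10.3-fold and at least 25.9-fold. Il17a, the cytokine bound by Il17ra, was at least 7.19-fold and at least 5.77-fold higher, and Il17f, its relative, at least 9.19-fold and at least 14.6-fold. Among the signalling genes, the IRAK-family gene Irak2 was higher by 1.20 and 1.14 on the log2 scale in control and treated cells, and Peli1, a ubiquitin ligase of this arm, by 1.25 and 1.31. The adaptors Traf3 (1.22 and 1.17) and Traf4 (1.07 and 1.19) of the IL-17 receptor list were also higher. The kinase Jak2 was higher by 1.97 and 2.18 and Stat5a, a transcription factor downstream of the TSLP receptor, by 2.47 and 3.23. The lower gene was Il17rc, the partner of Il17ra in the IL-17A receptor, at -1.35 in control and 0.28 in treated cells on its brighter probe. Its other probe gave 0.07 and 0.32. Of the 40 genes, 6 stayed at background on all 4 arrays, among them the ligand genes Il25, Tslp and Il1b.

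**Figure D4:**
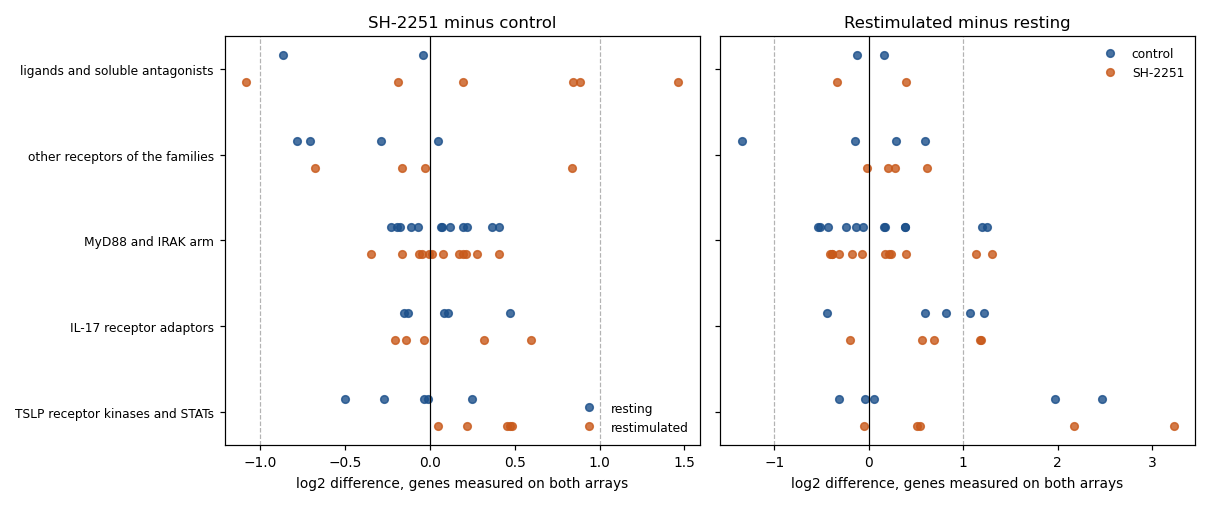
Log2 differences of the pathway genes measured on both arrays of a comparison, in rows by list, without error bars. Dashed lines mark 2-fold. Genes with only a bound are not drawn, which leaves out Il33, Il1a, Il17a and Il17f with restimulation. Of the genes drawn, Irak2, Peli1, Traf3, Traf4, Jak2 and Stat5a lie beyond 2-fold above with restimulation, and Il17rc beyond 2-fold below in control cells. With SH-2251 only Il18 and Il1a pass 2-fold, both in restimulated cells.

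Genes with profiles like those of the receptors were sought for the 4 receptors that were measured on all arrays and whose levels spanned at least 1 log2 unit. Likeness was the distance between the 4 levels of 2 genes, each centred on its own mean, over 11517 genes, and smaller is more alike. The nearest to Il1rl1 was Pparg, a nuclear receptor gene, at a distance of 0.59. Pparg had levels of 3.33, -0.50, 4.37 and 0.38, which gives log2 differences with SH-2251 of -3.83 and -3.99. Tgm2 (0.85) and Hic1 (1.08) came next. Levels were not scaled, so a distance grows with the span of a gene's levels, which was 5.31 log2 units for Il1rl1. Il1r1 was nearest to Marcks (0.11), Src (0.23) and Iigp1 (0.24). Il1rap was nearest to Cd40lg (0.20), Ttc39c (0.21) and Hspa1b (0.21), and Il1r2 to Syt12 (0.08), Ehd1 (0.10) and Malt1 (0.11). With 4 arrays such a ranking is a description only.

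**Figure D5:**
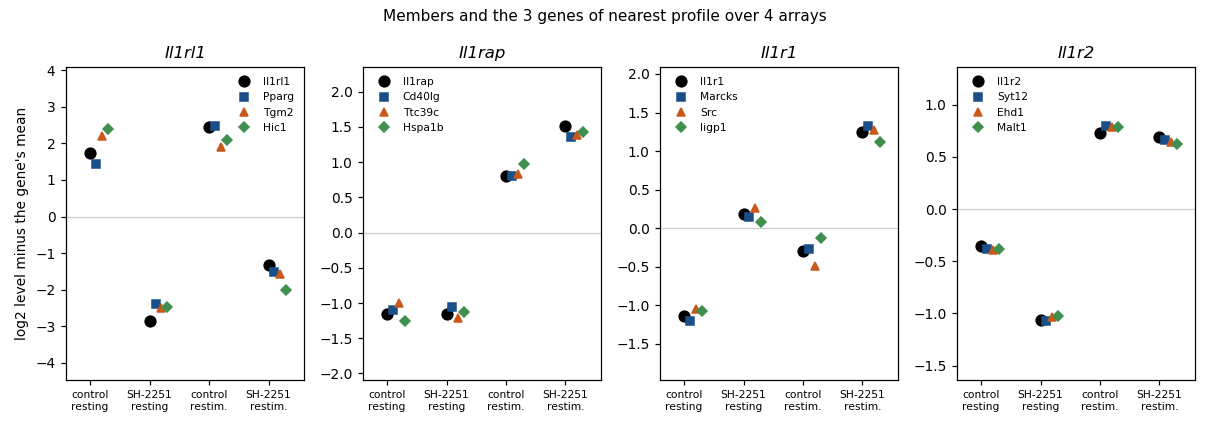
Levels of 4 receptor genes, each centred on its own mean, with the 3 genes of nearest profile over the 4 arrays. Points of the nearest genes are shifted sideways. Those for Il1r1, Il1rap and Il1r2 lie at nearly the same heights as their nearest genes, while Il1rl1 and its 3 genes, all low on both SH-2251 arrays, are 0.59 to 1.08 apart.

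Markers of the labelled cells and of other cells that carry ST2 were read on the same arrays. All 6 measured markers of CD4 T cells and Th2 cells were well above background on every array. Gata3, the transcription factor that defines Th2 cells, had levels of 5.39, 5.22, 5.87 and 5.83, and Il4 of 4.69, 4.59, 8.25 and 8.02. Against these, the brightest Il1rl1 probe was lower with SH-2251 by over 3 log2 units in either state. Under normexp its differences were -1.99 in resting and -2.96 in restimulated cells, and without uneven spots they were -3.05 and -2.96. Of 7 mast cell and basophil markers on the arrays, 5 (Ms4a2, Mcpt8, Prss34, Tpsb2 and Gata2) stayed at background on all 4 arrays. The summed level of the list was between -1.87 and -1.63. Fcer1a, at -4.57, -4.91, -4.77 and -5.21, was well above background in resting control cells only. Cpa3, a mast cell protease that also belongs to this list, was well above background throughout, at -2.60, -2.61, -2.42 and -2.57. Of the 6 markers of type 2 innate lymphoid cells, all were well above background in both control conditions, 3 in resting treated and 5 in restimulated treated cells. Klrg1 had levels of -3.18, -6.30, -2.31 and -3.99 and Arg1 of -3.73, -6.92, -3.91 and -6.96, so both were lower with SH-2251, as Il1rl1 was, and treated cells were below the background limit for Arg1 in both states and for Klrg1 at rest. At rest every one of the 6 stood below its control level with SH-2251, and the median log2 difference, bounds included, was -0.78. Areg fell there from -3.64 to -6.55, which is below the background limit. After restimulation the other 4 genes were mixed. Id2 was lower with SH-2251 (6.13 in control and 5.71 in treated cells) and Calca higher (-0.50 and 0.80). Areg (2.51 and 2.50) and Rora (-3.20 and -3.17) were level. The summed level of this list, which is carried by Id2, was 4.85, 4.21, 6.26 and 5.91. Regulatory T cell markers did not all run one way, since Foxp3 was at -3.84, -3.74, -4.54 and -3.83, Ikzf2 was higher with SH-2251 and Ctla4 lower, and their summed level was 3.38, 2.95, 4.56 and 4.43. The summed level of the CD8 T cell and NK cell list was higher with SH-2251, as Il1r1 was, at -1.69, -0.98, -1.55 and -0.77. Its genes did not shift alike. Cd8a was at -3.53, -2.07, -2.82 and -1.85, and Klrd1 at -2.40, -2.35, -2.67 and -2.06. Eomes was well above background on the treated arrays only, and Ncr1 and Klrb1c were at background on all arrays. The red cell list, of which Hba-a1 and Alas2 were measured, was also higher, at -1.55, -0.51, -2.21 and -0.68. B cell markers summed to 5.35, 5.15, 5.05 and 5.52, with Pax5 at background. In restimulated cells 5 of 7 measured B cell markers were higher with SH-2251, with a median difference of 0.62, and Ms4a1 (-1.29 to -0.08) and Cd74 (3.14 to 4.33) were so by over 2-fold, as Il1r1 was. The median at rest was 0.16. Myeloid markers summed to between 1.28 and 1.58, with Lyz2 and Itgam at background. The part of such cells in the levels of the receptors was not tested.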

How the data were processed

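RNA from 4 cultures was labelled with Cy3 and hybridised to Agilent whole mouse genome arrays, 1 array per condition, and precision is limited by that number. The authors deposited scanner files whose intensity values were corrected for background and spatial trend by Feature Extraction (10.7 in the submitters' processing notes, 10.7.3.1 in the file headers), with flags for spots above background. They also deposited log2 values, of which 99.6% to 99.7% per array lay within 0.01 of the log2 intensities minus a constant equal to the 75th percentile.

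Here, control and outlier spots (77 to 106 per array) were left out, spots of a probe averaged, and log2 intensity minus the 75th percentile of each array computed. Probes were named by RefSeq accession through RefSeq genes of GRCm38.p6. The brightest probe stood for a gene, and all receptor probes are reported. A comparison needed a signal well above background on 1 or both arrays. With 1, the dimmer array was given the lowest signal that passed there (or the probe's own, if higher), which makes the difference a bound. The technical SD combines the software's error estimates of both spots. Without replicates there is no test. Named genes were the receptors, pathway genes past 2-fold, neighbours of the cluster and the 3 nearest profiles. The receptors and lists were chosen with earlier results of these data known. The calculation was tested on simulated arrays. Alternatives covered scaling, background correction, filters, probe choice and fold threshold. Normexp used median spot signals with an offset of 50. The software was limma 3.58.1 in R 4.3.3, and numpy 2.4.6, pandas 2.3.3 and matplotlib 3.10.9 in Python 3.11.15.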

Additional observations from a re-analysis of the deposited data

Results flagged for a closer look

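Some genes differed in opposite directions under the same contrast in the other setting, which with 1 array per condition was not tested as a difference. Il18r1 and Il18rap were slightly higher after restimulation in control cells (0.19 and 0.22 on the log2 scale) and lower in treated cells (-0.18 and -0.33). All but the -0.33 of Il18rap (technical SD 0.232) were within their technical SD, so their direction was not measured. The response in treated minus that in control cells was -0.37 and -0.55. Il17rc was lower with SH-2251 in resting cells (-0.79) and higher in restimulated cells (0.84), a gap of 1.63 (technical SD 0.435), and its restimulation response differed by the same 1.63, since both are formed from the same 4 values. The other Il17rc probe did not share these values, at -0.36 and -0.12 with SH-2251. Stat5a differed by -0.27 with SH-2251 in resting and 0.48 in restimulated cells, a gap of 0.75 (technical SD 0.289).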

How the results depend on the processing

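No paired analysis was possible because each condition has 1 array. Over 9 settings, 288 receptor differences were recomputed, of which 251 moved by less than the technical SD, 36 moved by more and 1 past 2-fold reversed. Many of the 251 could hardly move. Both filter settings changed none of the values, and median centring, the authors' values and kept outlier spots changed none by over 0.058. The 1 that reversed was Il1rl1 with restimulation in treated cells. It was -0.30 under normexp against 1.54 as reported, and 0.76 under normexp without uneven spots. Counting those under 2-fold, 9 changed sign. The 2 forms of normexp gave 28 of the 36, averaging all probes 7 and quantile normalization 1. Normexp over all spots moved 18 of its 32 differences and reversed 1, and normexp without uneven spots moved 10. The 2 forms gave nearly the same values in the comparisons that leave out the resting SH-2251 array. With SH-2251 the receptors 2-fold lower stayed at 1 in every setting of processing, and at a 1.5-fold threshold were 2 in resting and 3 in restimulated cells. Those higher in resting cells were 0 under normexp without spots of uneven background and at 3-fold, and 2 with neither filter nor bound, and in restimulated cells 2 at 1.5-fold and 0 at 3-fold. With restimulation in control cells, 1 was lower at 1.5-fold, and those higher were 1 under quantile normalization, 4 at 1.5-fold and 1 at 3-fold. In treated cells, 1 was lower with neither filter nor bound and 1 at 1.5-fold, and those higher were 1 under normexp, 2 under normexp without uneven spots, 3 with the mean of all probes and 2 at 3-fold. The cause was not tested. Signal over background limits Il17rb, the NM_010743 probe of Il1rl1 at rest and the dim Il1rap probes.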
